A study of Onthophagus taurus with 96 samples.

Results

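The genes described here, OTAU011635 and OTAU012036, had no read at all in some animals of a group and clear expression in the other animals of that same group, in brains, thoracic horns, head horns and genitalia of the horned beetle *Onthophagus taurus*. They were chosen by their raw read counts: in at least 1 treatment by sex group, 1 to 5 of the 6 libraries had 0 reads and every other library had 30 or more, in each of the 4 tissues. Of 17483 gene models, 2 met this rule, and both met it in control males. In all 118 genes met it in at least 1 tissue and group, of which 95 reached 1 tissue, 15 reached 2 and 6 reached 3 with the same group. The counts that chose the genes are given as a description, with no test.

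The study compared pupae in which *dsx* was knocked down with control pupae. Doublesex is a transcription factor of somatic sex differentiation in insects, made in female and male splice forms. The 16 groups, of 6 libraries each, were *dsx*RNAi females, *dsx*RNAi males, control females and control males in each of the 4 tissues. *dsx*RNAi larvae received 0.5 µg of double-stranded RNA against *dsx* in 3 µl of buffer, and control larvae received 1 µg of double-stranded RNA copied from a cloning vector in the same volume. All were injected in the last larval instar and dissected as pupae within a day of pupation. All were reared from wild-caught parents taken at 2 places, and the labels do not give the origin of an animal. Knockdown by injected RNA is systemic and partial, and not a deletion. By the study's methods the 4 tissues were taken from 6 pupae of each sex and treatment, so that the 4 tissues are repeat looks at the same animals and not independent samples. Which library of a tissue belongs to which pupa is not in the labels.

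Animals of an outbred species can differ in the genes they carry, which is called presence or absence variation, and they can also differ in whether a gene they carry is transcribed. A messenger RNA library cannot tell these apart, because both leave a gene without reads. DNA was not measured. A gene that is off in a tissue of every animal leaves zeros as well, but such a gene is silent across a group and not in part of it.

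Library totals ran between 3615803 and 19008005 reads, with a median of 8518004, and no 2 libraries were identical. Summed neuronal markers stood at 4325 to 5987 CPM (counts scaled to library size) in brains, against 23.5 to 436 CPM in the other tissues, and summed epidermal and cuticle markers at 2203 to 29008 CPM in the other 3 tissues, against 34.6 to 420 CPM in brains. CPM were taken after TMM scaling of the 24 libraries of a tissue. Mean *dsx* levels were lower in *dsx*RNAi than in control animals of the same sex in both horn types and in genitalia, at 6.08 to 26.5 CPM against 23.2 to 59.4 CPM. In brains *dsx* had at most 8 reads in any library.

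OTAU011635 (named OtauTmpM011635 in the annotation, with no fly or human gene name) lies on the plus strand of scaffold 849 at 2870 to 5844 of the study's v0.5.3 assembly, among 20 gene models of that scaffold. It divided the 96 libraries into 48 with 22 to 479 reads and 48 with 0 to 4 reads. Among the low libraries, 40 had none and the other 8 held a total of 13 reads. No library lay between. In each of the 4 tissues, 12 of the 24 libraries expressed it.

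**Figure D1:**
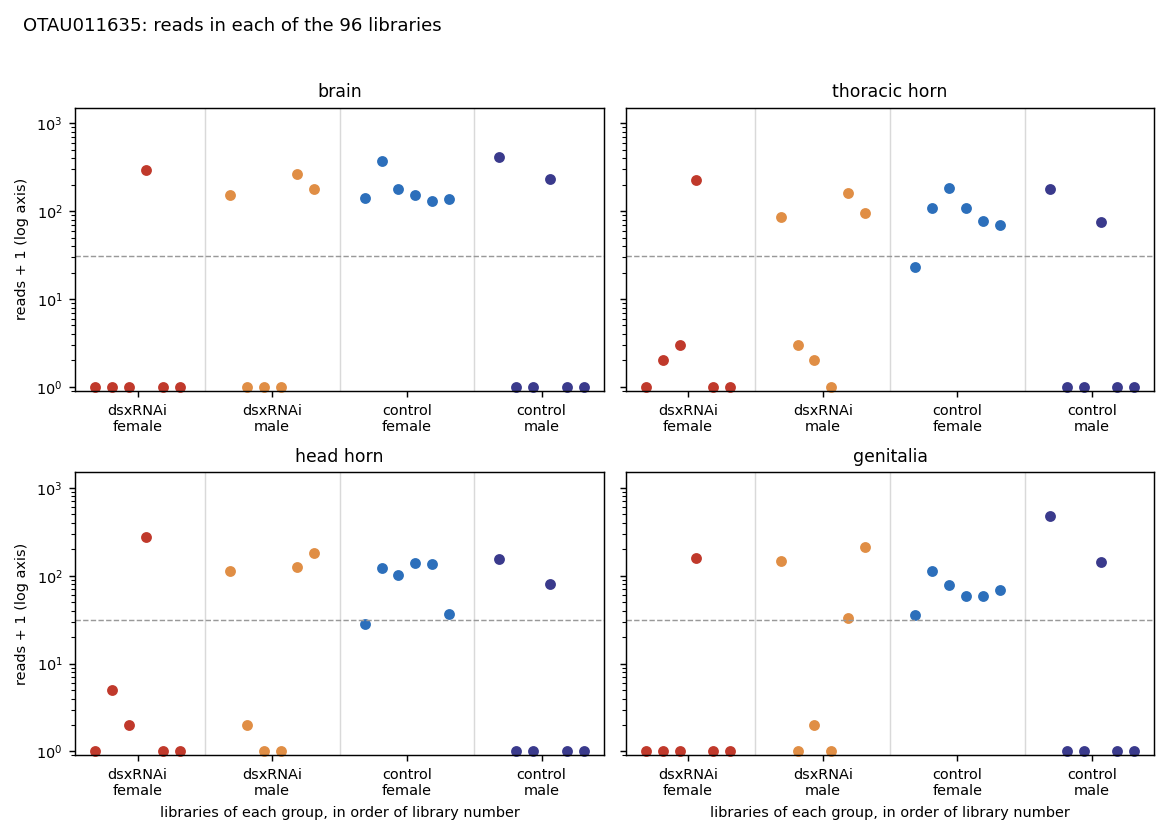
Reads of OTAU011635 plus 1 (log axis) in each library, 1 panel per tissue, with the 4 groups side by side and the 6 libraries of a group in order of library number. The dashed line marks 30 reads. In every tissue 1 *dsx*RNAi female library, 3 *dsx*RNAi male, 6 control female and 2 control male libraries had 22 or more reads, and the rest had at most 4.

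In *dsx*RNAi females the brain libraries had 0, 0, 0, 293, 0 and 0 reads in order of library number. Their thoracic horns had 0, 1, 2, 223, 0 and 0 reads, their head horns 0, 4, 1, 274, 0 and 0, and their genitalia 0, 0, 0, 157, 0 and 0. A single library per tissue, the fourth in each, carried nearly all reads of the group, at 34.3 CPM in brain, 18.4 in thoracic horn, 16.0 in head horn and 14.5 in genitalia.

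In *dsx*RNAi males the brains had 151, 0, 0, 0, 267 and 176 reads and the thoracic horns 85, 2, 1, 0, 159 and 94. The head horns had 113, 1, 0, 0, 123 and 178 reads and the genitalia 145, 0, 1, 0, 32 and 209. The same number of libraries, 3 of 6, expressed the gene in every tissue, and they were the first, the fifth and the sixth each time.

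Control females were the only group in which all libraries expressed it. Their brains had 139, 369, 179, 151, 131 and 138 reads, their thoracic horns 22, 107, 181, 108, 77 and 68, their head horns 27, 121, 102, 139, 134 and 36, and their genitalia 35, 111, 77, 58, 58 and 68. The lowest 2 of these values, 22 and 27 reads, were the only ones of the 48 expressing libraries under 30.

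Control males, the group that met the rule, had 416, 0, 0, 229, 0 and 0 reads in brains and 180, 0, 0, 75, 0 and 0 in thoracic horns. They had 155, 0, 0, 79, 0 and 0 reads in head horns and 479, 0, 0, 144, 0 and 0 in genitalia. The expressing libraries were the first and the fourth in every tissue, and the first was the higher, by 1.88 times in brain, 2.12 in thoracic horn, 1.68 in head horn and 2.77 in genitalia on the CPM scale. The smallest non-zero count, 75 reads, stood clear of the minimum of 30. The rule asked for 0 or at least 30 reads, so a gap of this kind was set by the choice of the gene. The folds that follow are therefore a description. With 3 reads as the upper limit of a count of 0 in a library, which covers counting error only, the lower of the 2 expressing libraries was at least 14.02-fold higher than any silent library in thoracic horns and at least 70.2-fold higher in brains.

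Over all tissues and groups, the 48 expressing libraries had totals of 5818852 to 19008005 reads with a median of 8557774, and the other 48 had 3615803 to 15908508 with a median of 8425636. Within control males the totals of expressing and silent libraries overlapped in 3 tissues and did not in brain, at 7889583 to 8033444 against 7433418 to 7733833 reads. The part of depth in the result was not tested. Among control males, summed levels of 6 marker lists were compared between libraries that did and did not express the gene. The lists were neuron (6 of 8 genes matched), muscle (6 of 6), epidermis and cuticle (5 of 5), blood cell (2 of 5), fat body (1 of 3, so that its sum is a single gene) and germ line (2 of 4). The sums did not overlap in 4 of 24 list and tissue pairs. These were neuron in brain, at 4846 to 4981 CPM in expressing against 5089 to 5578 in silent libraries, epidermis and cuticle in brain, at 142 to 195 against 58.6 to 93.6 CPM, blood cell in genitalia, at 193 to 376 against 67.98 to 177 CPM, and fat body in thoracic horns, at 13.03 to 14.52 against 17.03 to 21.21 CPM. With 2 libraries against 4, sums can separate through the order of a few values alone, and no share over all genes was computed. The count of pairs is therefore a description, and the part of these lists in the result was not tested.

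OTAU012036 (OtauTmpM012036, also without a fly or human gene name) lies on the minus strand of scaffold 270 at 123319 to 125585, among 9 gene models. It was expressed in control males alone among the 4 groups, and there in 3 of 6 libraries of every tissue. Control male brains had 0, 0, 167, 0, 162 and 185 reads, thoracic horns 0, 0, 87, 0, 92 and 80, head horns 0, 0, 154, 0, 184 and 133, and genitalia 0, 0, 234, 0, 166 and 37. The third, the fifth and the sixth library expressed it in each tissue. The remaining 84 libraries had at most 4 reads, with none in 63 and a total of 29 reads in the other 21.

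The group means of the expressing control male libraries were 22.6 ± 1.84 CPM in brain, 9.90 ± 1.13 in thoracic horn, 13.5 ± 2.96 in head horn and 12.8 ± 6.75 in genitalia (SD, n = 3 each). Genitalia had the widest spread, because library 96 held 37 reads and 5.16 CPM, the value closest to the minimum of 30 reads. The lowest expressing library of a tissue was at least 13.6-fold higher than the 3-read limit of the silent libraries in thoracic horns and at least 53.3-fold higher in brains. The rule had set a gap of this kind in advance, so these folds are a description. Thoracic horn library 44, a silent one for both genes, was the shallowest library of the series.

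Outside control males, the few reads of OTAU012036 lay mostly in *dsx*RNAi males, which held 21 of the 29. Their brains had 2, 0, 1, 2, 2 and 0 reads, their thoracic horns 0, 1, 0, 2, 1 and 0, their head horns 0, 1, 0, 2, 4 and 0, and their genitalia 1, 0, 0, 1, 0 and 1. The fourth and the fifth libraries of the 4 tissues together held 14 of these 21 reads. These places were singled out by their counts, and they include the deepest library of each tissue. Those had 13326938 reads in brain, 19008005 in thoracic horn, 15215467 in head horn and 15908508 in genitalia. OTAU012035, the neighbouring gene described next, had its highest counts outside control males in thoracic horns of *dsx*RNAi males. The fourth library had 10 reads (1.54 CPM) and the fifth 13 (1.10 CPM). The *dsx*RNAi females held 5 reads, with 0, 0, 0, 1, 0 and 1 in brains, 1, 0, 0, 0, 0 and 1 in thoracic horns, none in head horns and 0, 0, 0, 0, 0 and 1 in genitalia. Control females held 3 reads, 1 in the sixth brain, 1 in the fourth head horn and 1 in the first genitalia library, and none in thoracic horns. The silent control male libraries had none. With at most 4 reads per library, these counts were not tested.

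Among control males both genes were expressed in different libraries: the first and the fourth for OTAU011635, and the third, the fifth and the sixth for OTAU012036. The second library of each tissue expressed neither. For OTAU012036 library totals overlapped between expressing and silent control males in 3 tissues and did not in head horns, at 10862207 to 12363703 against 8004106 to 8654478 reads, and the part of depth was not tested. The marker sums of control males did not overlap between expressing and silent libraries in 1 of 24 list and tissue pairs, neuron in brain, at 5324 to 5578 CPM in expressing against 4846 to 5089 in silent libraries. The same control male brains gave the neuron pair of OTAU011635, with the order reversed, so these are not separate observations. With 3 libraries against 3 this count is also a description, and the part of the list in the result was not tested.

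OTAU012036 did not stand alone on its scaffold. The neighbouring gene model on the same strand, OTAU012035 (Dmel-Tmp-cg6431, named after the fly gene CG6431), lies 3389 bases away at 105716 to 119929. Its counts in control males were 0 to 3 in the silent libraries and 508, 451 and 467 in the third, the fifth and the sixth brain library. The same 3 places held 318, 327 and 281 reads in thoracic horns, 543, 678 and 573 in head horns, and 846, 609 and 167 in genitalia. Across the series it had 167 to 846 reads in the 12 libraries that expressed OTAU012036 and 0 to 13 in the other 84. Its last 270 bases overlap OTAU012034 (Dmel-Tmp-grp, named after the fly checkpoint kinase gene grapes) on the other strand, so that a part of its reads could belong to that gene if strand was not used in counting. In those 12 libraries its reads were 2.52 to 4.51 times those of OTAU012036, with a median of 3.58.

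The neighbour on the other side did not show the split. OTAU012037 (OtauTmpM012037), on the plus strand 4748 bases away at 130334 to 132897, had reads in all 96 libraries. It had 56 to 363 reads, with a median of 120, in the 12 libraries that expressed OTAU012036 and 52 to 752, with a median of 144, in the other 84.

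A search over all 17483 genes for any other whose lowest count in those 12 libraries exceeded its highest count in the other 84 found OTAU012035 and 1 more, OTAU014747. This search was made after the values were seen. OTAU014747 (OtauTmpM014747) lies on a different scaffold, 1284, on the plus strand at 66484 to 67636. It had 71, 48 and 70 reads in the third, the fifth and the sixth control male brain library, 35, 49 and 47 in thoracic horns, 54, 64 and 58 in head horns and 59, 78 and 18 in genitalia. Its other 84 libraries had at most 6 reads. The same search found no other gene for OTAU011635.

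**Figure D2:**
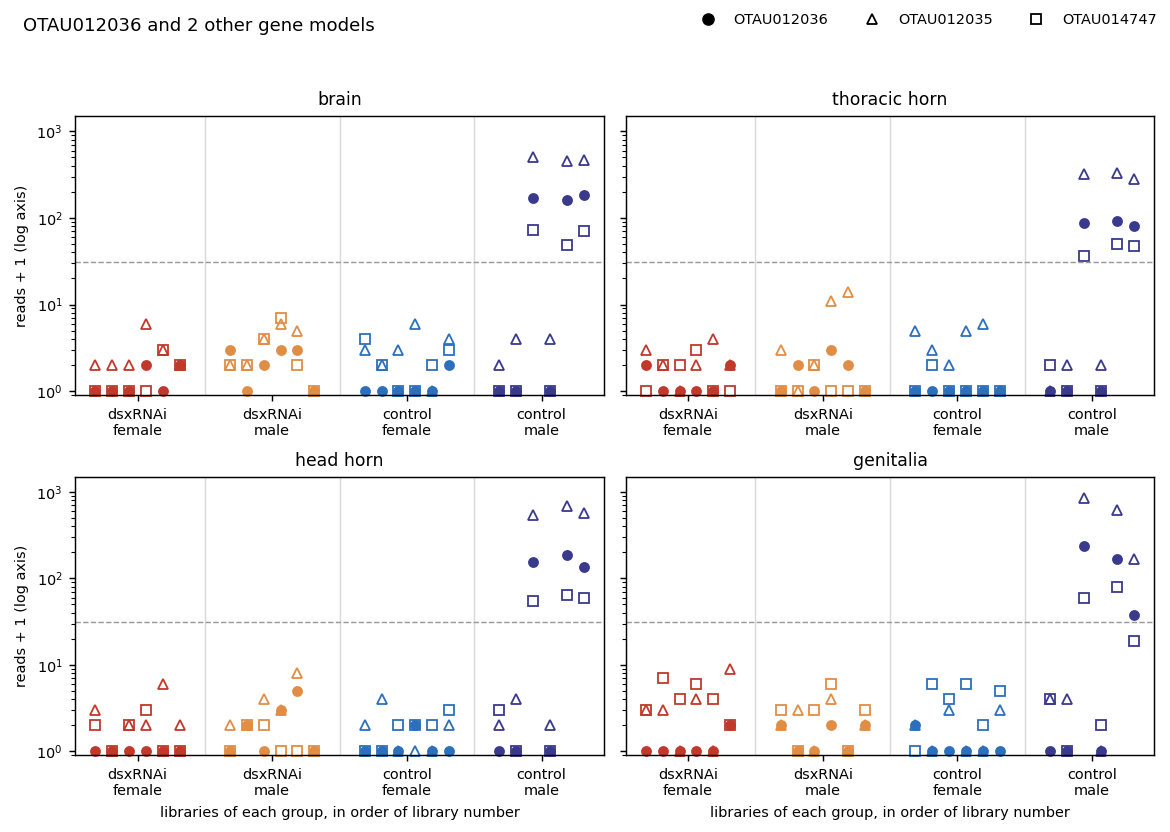
Reads plus 1 (log axis) of OTAU012036 (filled circles), its neighbour OTAU012035 (open triangles) and OTAU014747 (open squares) in each library, 1 panel per tissue, with the groups side by side and libraries in order of number. The dashed line marks 30 reads. The 3 genes are high in the same 3 control male libraries of each tissue, with the sixth genitalia library lowest at 37, 167 and 18 reads, and none exceeds 13 reads elsewhere.

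The neighbours of OTAU011635 were low everywhere. OTAU011634 (OtauTmpM011634), 1077 bases away, had 0 to 8 reads both in the 48 libraries that expressed OTAU011635 and in the other 48. OTAU011636 (OtauTmpM011636), 8093 bases away, had 0 to 21 reads in the expressing libraries and 0 to 14 in the others. At these levels a split in either could not be seen.

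By the overlap of libraries at 0 (the Jaccard index, shared zeros over zeros in either gene, among 9763 genes with at least 30 reads in 24 or more libraries), the gene most like OTAU011635 was OTAU017189, at 0.457 with 21 of 46 libraries shared. For OTAU012036 it was OTAU000477 (Dmel-Tmp-cg10793), at 0.590 with 46 of 78. OTAU000477 was also expressed in some *dsx*RNAi libraries of both sexes, so it does not share the split of OTAU012036. OTAU012035 and OTAU014747 had too few libraries with 30 reads to enter this measure, as had OTAU012036 itself. Genes with its split could therefore not be found this way. Stray single reads lower the index, since a library with 1 read no longer counts as 0.

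Where they were expressed, both genes reached middle levels. Across tissues the deposited FPKM (fragments scaled by gene length and library size) of OTAU011635 had medians of 12.2 in brain, 5.51 in thoracic horn, 7.34 in head horn and 5.68 in genitalia over 12 expressing libraries each. The ranges were 8.60 to 26.6, 1.501 to 13.8, 2.07 to 12.3 and 1.74 to 18.4 FPKM, so that brain had the highest median and its range overlapped those of the other tissues. The mean over expressing libraries exceeded the series mean of 53.7% to 60.7% of the genes with any FPKM in the same tissue.

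OTAU012036 had FPKM of 10.6 to 12.2 in brain, 5.60 to 5.62 in thoracic horn, 6.62 to 8.00 in head horn and 2.95 to 10.5 in genitalia, over 3 control male libraries each. Brain lay above both horn types in all 3 libraries, and genitalia overlapped the horns. OTAU012035 in the same libraries had 15.7 to 17.2, 10.4 to 10.9, 13.3 to 15.6 and 7.05 to 20.2 FPKM.

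The study's main questions, whether expression differs with *dsx* knockdown and between the sexes, were put to both genes with edgeR's quasi-likelihood test across all genes of a tissue, with Benjamini-Hochberg adjustment. The 8 treatment contrasts set *dsx*RNAi against control within a sex and tissue, and the 8 sex contrasts set females against males within a treatment and tissue. Neither gene was called at an adjusted p under 0.05 in any of the 16. Over all genes 0.0485% of the tests in treatment contrasts and 2.48% of those in sex contrasts were called. Treatment contrasts with calls were males in head horns, at 0.393% of genes, and females in genitalia, at 0.0101%, and the other 6 had none. Between *dsx*RNAi females and males the shares were 0.14% in brain, 0% in both horn types and 2.06% in genitalia, and between control females and males 0.16% in brain, 0.355% in thoracic horn, 6.53% in head horn and 10.3% in genitalia. OTAU012036 was left out by edgeR's filter on low counts in all 16 contrasts, because at most 3 of the 12 libraries had more than 4 reads. OTAU011635 passed the filter in the 8 contrasts that include control females and had no unadjusted p under 0.05 in them. The rule scanned the zeros of every group, so these tests are not independent of how the genes were chosen.

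For OTAU011635 *dsx*RNAi females had 1 of 6 expressing libraries against 6 of 6 in control females, in every tissue. The fitted log2 fold changes of *dsx*RNAi over control females were -1.86 ± 1.28 in brain, -1.45 ± 1.27 in thoracic horn, -1.79 ± 1.21 in head horn and -1.77 ± 1.33 in genitalia (± SE, n = 6 against 6). These SE are approximate, being taken from the fold change and the F statistic of the test. edgeR's adjusted p was 0.857 or more in all 4. In each tissue the single expressing *dsx*RNAi female library lay above the median of the control females, so that the groups overlapped.

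Control females over control males, with 6 of 6 against 2 of 6 expressing libraries, gave log2 fold changes of 0.64 ± 1.17 in brain, 0.88 ± 1.17 in thoracic horn, 1.19 ± 1.20 in head horn and 0.28 ± 1.25 in genitalia (± SE). The edgeR adjusted p was 0.596 or more. The standard errors exceeded 1 on the log2 scale in all 8 contrasts. Both sets of contrasts use the control females.

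**Figure D3:**
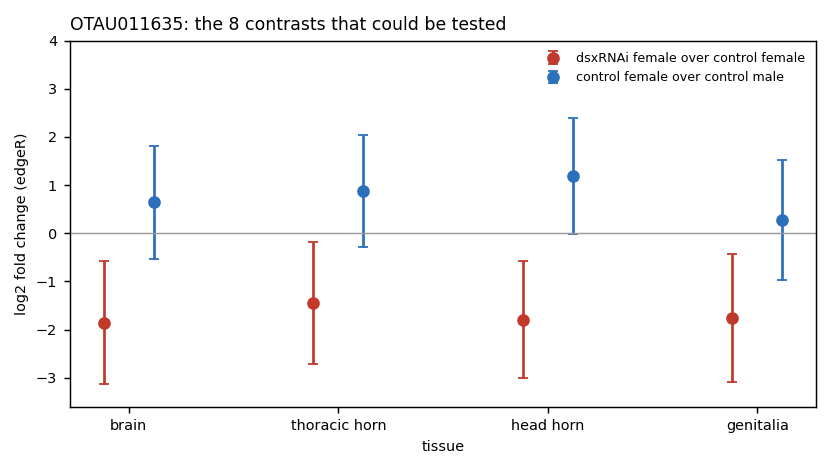
log2 fold change of OTAU011635 by tissue from edgeR, with bars of 1 standard error, for *dsx*RNAi females over control females (red) and control females over control males (blue). The red values run between -1.86 and -1.45 and the blue ones between 0.28 and 1.19, and no contrast was called. The standard errors were taken from the F statistic.

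DESeq2, which applies no such filter before its fit, called OTAU012036 in 3 contrasts, 1 of treatment and 2 of sex. Over all genes it called 0.81% of its tests in treatment contrasts and 6.07% of those in sex contrasts. *dsx*RNAi males over control males gave a log2 fold change of -6.11 ± 1.71 in thoracic horns (DESeq2 adjusted p = 0.0426, with 0.901% of genes called). Control females over control males gave -7.80 ± 2.73 in head horns (DESeq2 adjusted p = 0.0407, 11.3% called) and -7.59 ± 2.79 in genitalia (DESeq2 adjusted p = 0.0337, 24.1% called). All 3 calls rest on the same kind of group, 3 control male libraries with reads and 3 without, against 6 libraries with at most 2 reads. Those control male counts also chose the gene, so the calls and the fits without single libraries are a description. Leaving out any 1 of the expressing libraries ended each call, with DESeq2 adjusted p between 0.0538 and 0.179 over the 9 fits. Of the other 9 libraries of each contrast, leaving out 1 kept the call in 4 cases for thoracic horns, 4 for head horns and 5 for genitalia. The groups overlap in each, since the silent control males have 0 reads. DESeq2 called OTAU011635 in none of the 15 contrasts in which it gave an adjusted p, and no unadjusted p was under 0.05. The contrast without a p was *dsx*RNAi over control females in brain, with a log2 fold change of -1.89 ± 2.06. For OTAU012036 DESeq2 gave an adjusted p in 6 of 8 treatment and 5 of 8 sex contrasts. In contrasts where DESeq2 called neither gene, the share of all genes called was 0.0135%, 0.00711%, 0.416% and 0.151% for *dsx*RNAi over control females in brain, thoracic horn, head horn and genitalia, and 0.241%, 4.99% and 0.459% for *dsx*RNAi over control males in brain, head horn and genitalia. It was 0.451%, 0.0486%, 1.03% and 10.6% between *dsx*RNAi females and males in the 4 tissues in the same order, and 1.05% in brain and 1.84% in thoracic horn between control females and males.

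In the remaining 3 contrasts of *dsx*RNAi males with control males, brain, head horn and genitalia, the DESeq2 adjusted p of OTAU012036 was 0.111 to 0.129. Its neighbour OTAU012035, with higher counts in the same libraries, was called by DESeq2 in 3 of the 4 treatment contrasts of males, with log2 fold changes of -7.19 in brain, -6.38 in head horn and -7.84 in genitalia (DESeq2 adjusted p 0.000442 to 0.00134), and in all 4 sex contrasts of control animals. In thoracic horns of males, where OTAU012036 was called, OTAU012035 was not, at -5.08 ± 1.68 (DESeq2 adjusted p = 0.157). OTAU012035 shares the control male split of OTAU012036, so its calls restate that split and are a description. The silent control males had 0 to 3 reads of OTAU012035, and its calls were not refitted without single libraries. edgeR's filter removed it from all 16 contrasts. Without the filter, edgeR called it in 0 treatment contrasts, with an adjusted p of 0.193 or more. In sex contrasts that edgeR setting called it in 1, genitalia of control animals, at an adjusted p of 0.0490.

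Several genes stood just outside the rule. OTAU005017 (Dmel-Tmp-cg6568) missed it in *dsx*RNAi females by 1 library with a single read, and was the one gene added when the minimum was 3 CPM in place of 30 reads or when the group could differ between tissues. OTAU004805 and OTAU017183 missed it in control males, and OTAU017179 in control females, each by 1 library with 1 or 2 reads. OTAU017482 missed it in *dsx*RNAi females by 1 library with 6 reads. Just inside, the smallest counts of the 2 genes of the rule were 75 and 37 reads. With up to 2 reads counted as silent 14 genes met the rule, and with a minimum of 10 reads 7 did.

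Over these other settings 17 further genes appeared, so that 19 genes were silent in part of a group in at least 3 tissues under 1 setting or another. Of the 19, 15 carry no fly or human gene name (78.9%, against 60.1% of all gene models), and 12 lie on scaffolds with at most 10 gene models (63.2%, against 30.4%). These shares are a description and were not tested, and OTAU011635, with 20 gene models on its scaffold, and OTAU000477, with 473, are among those outside the second. OTAU017179, OTAU017183 and OTAU017482 are each the only gene model of their scaffold. The 17 genes varied in how common they were, from 1 expressing library per tissue (OTAU002262 and OTAU007140) to 23 of 24 (OTAU016926 and OTAU017183), with 10 or more reads taken as expressed.

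**Figure D4:**
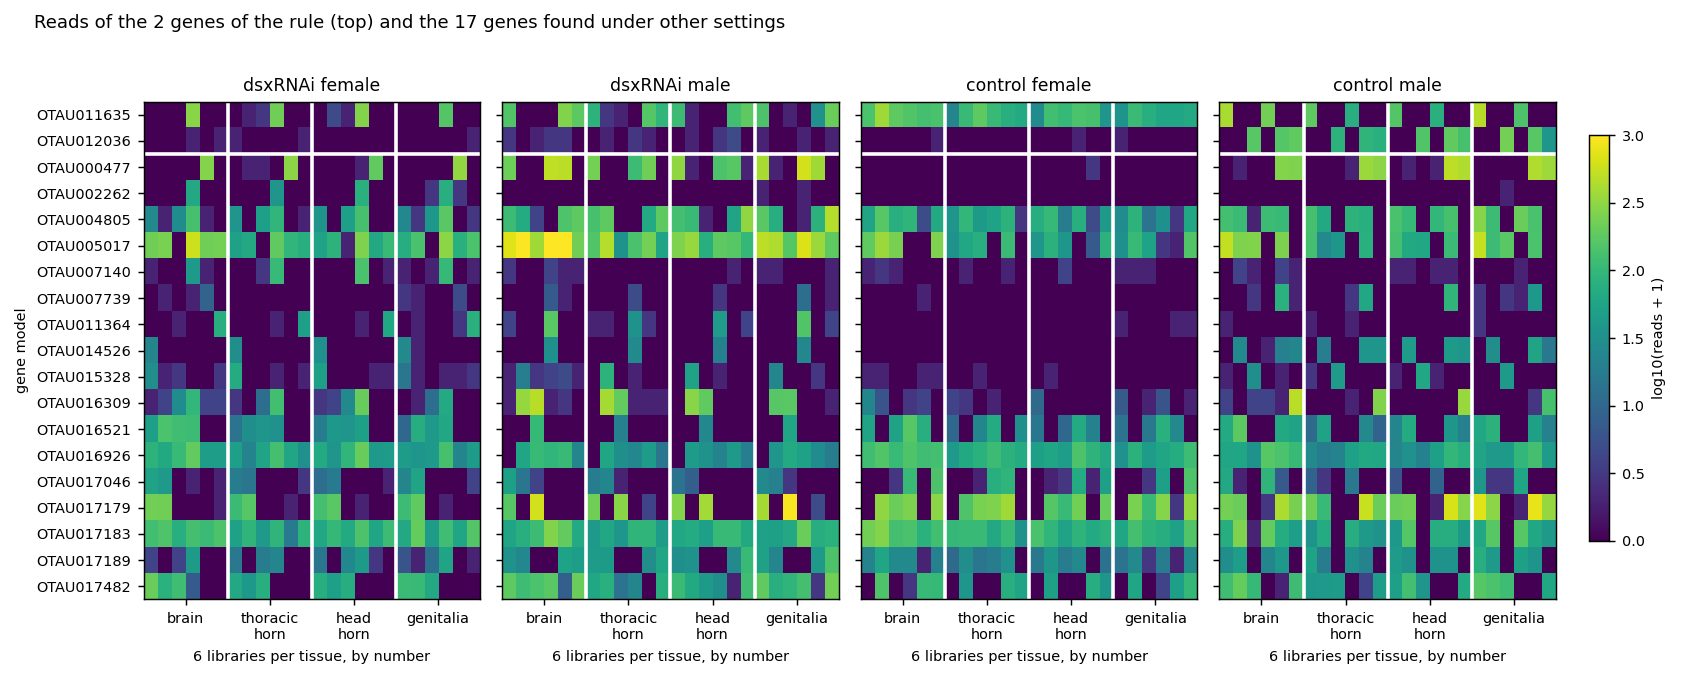
log10 of reads plus 1 for the 2 genes of the rule (top rows) and the 17 genes found under other settings, with a block for each group and, within it, the 6 libraries of each tissue in order of library number. Bright and dark cells recur at the same places in the 4 tissues of a block for most genes. In control females, several genes have the last 2 thoracic horn libraries the other way round.

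In order of library number, the expressing libraries stood at the same places in the 4 tissues for both genes of the rule, in all 4 gene and group pairs in which some but not all libraries were expressed. Over the 19 genes there were 49 such pairs. The number of expressing libraries was equal in all 4 tissues in 43 of them, and their places were the same in 39. Outside control females the places were the same in 38 of 42 pairs, against 1 of 7 in control females. In control females OTAU004805, OTAU005017, OTAU017046 and OTAU017179 had the same places in brain, head horn and genitalia and differed in thoracic horn only at libraries 41 and 42. With these 2 libraries exchanged, 5 of the 7 pairs and 43 of all 49 had the same places. The exchange was tried after the values were seen. The labels do not tie library numbers to animals, and no library was moved or paired in any result. Both libraries expressed OTAU011635, at 77 and 68 reads, and neither had a read of OTAU012036, so that the numbers of expressing and silent libraries given for these genes do not depend on their order.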

How the data were processed

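Stranded mRNA libraries were sequenced as single-end reads from 4 tissues of *dsx*RNAi and control pupae of both sexes. The authors trimmed reads with Trimmomatic 0.32, aligned them with TopHat2 2.1.0 to the *O. taurus* genome v0.5.3, and counted reads per gene model with HTSeq 0.6.1p1, and they deposited the raw counts of 17483 genes. The deposited FPKM values were computed by the authors from these counts with DESeq2, and were used for levels across tissues alone. Versions are those of the submitters' processing notes. A count of 0 means that no read was assigned to that gene model of the reference genome. Whether counting used strand is not given in the sources used here.

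Groups came from the sample titles. The members, the marker lists and the alternatives were chosen with earlier results of these data known. Every member is named, with its counts in all 96 libraries. Neighbours on the scaffold are named, and the gene sharing most zero-count libraries. The 16 contrasts were fitted on all genes passing edgeR's filterByExpr, with edgeR 4.0.16 (TMM, robust quasi-likelihood test, R 4.3.3), calls being at a Benjamini-Hochberg adjusted p under 0.05. The alternatives were DESeq2 1.42.0, size factors of DESeq2 in place of TMM, a fit of every gene with a read, and a joint fit of the 24 libraries of a tissue. The edgeR fit was checked on simulated counts, drawn with the same spread for all genes and without a split inside a group. That check therefore does not cover genes like the members. Standard errors given with edgeR were the absolute log2 fold change divided by the square root of the F statistic. A limit of 3 reads was used for a count of 0. Gene IDs could not be matched to RefSeq, with 0 of 17483 found, and sequences were not used here.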

Additional observations from a re-analysis of the deposited data

Results flagged for a closer look

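Within groups of 6, a library whose gap to the nearest other exceeded 0.625 of the group's range on the CPM scale (Dixon's 95% limit for 6 values) was found in 5 of the 20 groups in which a member had a library with 30 or more reads. The usual chance rate of about 1 in 20 groups is no yardstick here, because the genes were chosen for a split between 0 and 30 or more reads, which gives a ratio near 1 wherever 1 of 6 libraries has reads. The ratios are therefore a description. For OTAU011635 in *dsx*RNAi females the ratio was 1.00 in brain, 0.990 in thoracic horn, 0.973 in head horn and 1.00 in genitalia. The library that stood apart was the fourth by number in each tissue, the single one of its group that expressed the gene. In control male genitalia the ratio was 0.639, with library 91 at 31.4 CPM, library 94 at 11.3 CPM and the other 4 at 0.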

How the results depend on the processing

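No paired analysis was possible because every library carries its own number and the groups share none. The number of genes that met the rule was 2, against 7 with a minimum of 10 reads, 0 with a minimum of 100 reads, 14 with up to 2 reads counted as silent and 8 when 3 of the 4 tissues sufficed. It was 3 with a minimum of 3 CPM and 3 when the group could differ between tissues. edgeR called the members in 0 treatment and 0 sex contrasts, and so did the 3 other edgeR settings, of which only the one without a filter tested OTAU012036, whereas DESeq2 made 1 call in treatment contrasts and 2 in sex contrasts, all of OTAU012036. Without the filter on low counts, edgeR gave OTAU012036 an unadjusted p under 0.05 in 4 treatment and 5 sex contrasts, with an adjusted p of 0.0572 or more. Since edgeR called no member, no library was left out in turn in its fits. Leaving out each library for the 3 DESeq2 calls, an alternative chosen after seeing the data, gave log2 fold changes between -6.95 and -5.69 in thoracic horns of males, -8.62 and -7.30 in head horns and -8.22 and -6.95 in genitalia of control animals. Of the log2 fold changes of OTAU011635, all 31 values under alternatives kept their direction, and all stayed uncalled, with an adjusted p over 0.05. Over all genes, calls in treatment contrasts numbered 37 with edgeR, 777 with DESeq2 and 75 with all 4 groups in 1 fit, and calls in sex contrasts 1891 with edgeR, 5654 with DESeq2 and 1108 with no filter. The cause of these shifts was not tested. In the library with the lowest total, 3615803 reads, the 3-read limit for a count of 0 stood at 0.658 CPM. A gene without a read there could still be expressed below that level.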
